A study of Mus musculus with 26 samples.

Results

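Pancreatic islets of young mice were compared after 2 days of culture at 11 mM and at 3 mM glucose. The comparison used 4 of the 26 arrays of the series, 1 sample per array: replicates 1 and 2 of young islets at 11 mM, and both replicates of young islets at 3 mM. All 4 samples were islets of wild-type male C57/Bl6J mice aged 5 weeks. After isolation both groups recovered for 1 day at 11 mM in RPMI medium with serum, so the islets at 11 mM stayed at the recovery concentration and those at 3 mM were moved below it. Replicates 3 and 4 at 11 mM were left out because their Gapdh control probe sets read 5' over 3' at 1.26 and 1.03. That ratio was 0.12 and 0.152 on the arrays used at 11 mM, against 0.159 and 0.14 on those at 3 mM. Other groups, with 2 arrays each, serve as context: young islets at 5.5 and 16 mM, islets of old mice (56 weeks) at 11 and 3 mM, and a time course. In the time course, young islets kept overnight at 3 mM (time 0) were given 11 mM for 1 or 4 h. The replicates are labelled as biological, and whether each came from 1 mouse or several is not stated. The p-values therefore reflect how far arrays within a group differ, estimated over all 26 arrays of the series, and not a known number of mice.

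Islets are small clusters of endocrine cells, most of them the beta cells that make insulin. Beta cells take up glucose through the transporter GLUT2, the product of Slc2a2, and metabolise it. The ATP formed closes potassium channels, calcium enters, and insulin granules fuse with the cell membrane. Over hours to days glucose also sets the level of many beta cell mRNAs, in part through ChREBP, a transcription factor that binds carbohydrate response elements. The integrated stress response is a second nutrient-dependent programme: kinases slow translation, and the transcription factors ATF4 and CHOP, the product of Ddit3, accumulate and act on C/EBP-ATF elements. Glucose is also a growth signal for rodent beta cells.

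The promoters of 4 genes are shown because they hold the elements of these programmes beside genes whose levels are described here: Txnip for ChREBP, and Nupr1, Atf3 and Chac1 for the integrated stress response. Chac1 and Atf3 were chosen for display after their values were seen. Each sequence is the 250 bases before the start of the gene, read 5′ to 3′ on the gene's strand, from RefSeq on build GRCm38.p6. Capitals mark the motif match. The positions are chr3:96557707-96557956 (plus strand) for Txnip, chr7:126625471-126625720 (minus strand) for Nupr1, chr1:191183334-191183583 (minus strand) for Atf3 and chr2:119350992-119351241 (plus strand) for Chac1.
Txnip: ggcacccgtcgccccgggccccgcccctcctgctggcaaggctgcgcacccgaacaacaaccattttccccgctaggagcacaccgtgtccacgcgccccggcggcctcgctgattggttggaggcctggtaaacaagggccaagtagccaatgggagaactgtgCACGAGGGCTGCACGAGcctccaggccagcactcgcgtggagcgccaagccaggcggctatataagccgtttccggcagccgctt
Nupr1: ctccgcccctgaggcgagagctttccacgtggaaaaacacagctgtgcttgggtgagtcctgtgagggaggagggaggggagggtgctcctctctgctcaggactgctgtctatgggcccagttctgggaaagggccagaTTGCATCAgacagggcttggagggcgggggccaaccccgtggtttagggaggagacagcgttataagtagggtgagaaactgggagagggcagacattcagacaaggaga
Atf3: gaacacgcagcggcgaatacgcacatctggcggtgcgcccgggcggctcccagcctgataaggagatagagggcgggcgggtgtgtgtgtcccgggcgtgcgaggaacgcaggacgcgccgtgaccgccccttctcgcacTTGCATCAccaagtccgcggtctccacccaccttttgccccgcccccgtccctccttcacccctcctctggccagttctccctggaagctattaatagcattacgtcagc
Chac1: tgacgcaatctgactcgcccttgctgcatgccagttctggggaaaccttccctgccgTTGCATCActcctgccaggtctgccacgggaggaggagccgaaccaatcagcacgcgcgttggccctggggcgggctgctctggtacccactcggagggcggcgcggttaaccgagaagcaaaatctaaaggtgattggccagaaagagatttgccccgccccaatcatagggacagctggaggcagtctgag

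The carbohydrate response element was searched on both strands as a pair of CACGNG motifs with 5 bases of any kind between them, and the E-box core CACGTG is one form of CACGNG. It was found in 15 of the 32851 promoters of that length (0.0457%). Of the 17 genes with a promoter in the list of ChREBP targets and lipogenesis, Txnip alone held it, with its first base 85 bases before the start. The C/EBP-ATF element was searched as TGATGNAA on both strands and was found in 1134 promoters (3.45%). Among the 18 genes with a promoter in the integrated stress response list, 5 held it: Atf3, Chac1, Fgf21, Nupr1 and Vldlr. The match TTGCATCA begins 110 bases before the start in both Nupr1 and Atf3, and 193 bases before it in Chac1. A match describes the letters only.

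The deposited values are signal intensities, and changes are given as log2 of (value + 16), 11 mM minus 3 mM, with limma's moderated standard error (SE). On this scale the change of a dim gene is understated. A gene is said to rise or fall where its limma p-value, adjusted by the Benjamini-Hochberg method over all 12580 genes tested, is under 0.05. An exact permutation test of 2 against 2 arrays cannot give a two-sided p under 0.333, so the tests rest on the spread shared by all groups. The arrays of a group resembled each other: the correlation across genes was 0.983 between the arrays at 11 mM and 0.989 between those at 3 mM, against 0.948 to 0.96 between the groups (genes are not independent replicates).

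At 11 mM glucose, 3320 genes changed against 3 mM (26.4% of 12580), 1672 higher and 1648 lower. A change of at least 2-fold was reached by 610 of them, 327 higher and 283 lower, and one of at least 4-fold by 50, of which 21 were higher and 29 lower. Among the 14 gene lists described here, beta cell identity, exocytosis, ChREBP targets and cholesterol synthesis had 9 to 12 of 20 to 22 members higher and none lower. The integrated stress response had 11 of 17 lower. Among all genes 13.3% were higher and 13.1% lower. The lists were chosen with earlier results of these data known, and several genes named below for the largest changes are members. The list counts, here and below, are therefore descriptions and do not test a pathway. The arrays of the 2 groups did not overlap for 7807 genes (62.1%), with 33.8% higher and 28.3% lower. Without replicate 2 at 11 mM, 1919 genes passed, and without replicate 1 at 3 mM, 1929. The scaling matters for the split: with each array centred on its median, all changes are lower by 0.12 and 1070 of 3233 genes passed as higher against 2163 as lower.

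The steepest rises belonged to genes with varied roles. Fer1l6, which encodes a membrane protein of the ferlin family, had signals of 741 and 1021 at 11 mM, against 82 and 68 at 3 mM. Both arrays at 11 mM were far above both at 3 mM, a rise of 3.29 (SE 0.31, adjusted p = 3.68e-07). Olfm4, which encodes a secreted glycoprotein known from intestinal crypts, had 1051 and 1136 at 11 mM, against 175 and 147 at 3 mM. Its groups also lay far apart, and it rose by 2.65 (SE 0.25, adjusted p = 3.35e-07). Cbs, which encodes the enzyme that joins homocysteine and serine in transsulfuration, had 757 and 834 at 11 mM, against 125 and 126 at 3 mM. It rose by 2.52 (SE 0.34, adjusted p = 2.39e-05).

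Plut is a long noncoding RNA transcribed beside Pdx1, the gene of a transcription factor that beta cells need. Plut had signals of 452 and 425 at 11 mM, against 50 and 65 at 3 mM, and Pdx1 had 1765 and 1696, against 486 and 579. The rise was 2.63 for Plut (SE 0.27, adjusted p = 9.12e-07) and 1.68 for Pdx1 (SE 0.25, adjusted p = 7.18e-05). Among the other large rises, Fmo1, a flavin-containing monooxygenase gene, had 291 and 250 at 11 mM, against 16 and 23 at 3 mM. Tnfrsf9, which encodes the receptor 4-1BB, had 302 and 323, against 38 and 16. Prss53, a serine protease gene, was brighter, with 2492 and 2228 at 11 mM, against 560 and 337 at 3 mM. Replicate 2 at 11 mM was the higher one for Dapl1, with 287 and 600 at 11 mM, against 52 and 32 at 3 mM, and for Pdyn, the dynorphin precursor gene, with 88 and 338, against 19 and 22. The rest of the 15 largest rises (4933432K03Rik, Adam32, Slitrk6, Slc2a2, Phactr1 and Zc3h3) were of 2.25 to 2.42, although other probe sets of Phactr1 and 4933432K03Rik gave as little as 0.67 and 1.31.

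The steepest fall was that of Stbd1, which encodes a protein that ties glycogen to membranes. Its signals were 39 and 40 at 11 mM, against 1310 and 1067 at 3 mM. Both arrays at 11 mM were near the level of dim probe sets, and Stbd1 fell by 4.43 (SE 0.27, adjusted p = 9.24e-10), which is 21.6-fold on the offset scale. Ddit3 had 257 and 251 at 11 mM, against 3901 and 3908 at 3 mM. The arrays within each group nearly coincided, and Ddit3 fell by 3.86 (SE 0.20, adjusted p = 6.86e-11). Its other probe set gave a change of -1.52. Nupr1, which encodes a small stress-induced nuclear protein, had 346 and 594 at 11 mM, against 5044 and 6232 at 3 mM, and fell by 3.58 (SE 0.21, adjusted p = 4.61e-10).

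Other large changes ran from -3.64 for Entpd2, an ectonucleotidase gene, to -2.35 for Myc, the growth-promoting transcription factor gene. Entpd2 had signals of 114 and 135 at 11 mM, against 1350 and 2220 at 3 mM. Steap1, of the metalloreductase family, had 107 and 120, against 1267 and 1490. These groups lay far apart, as did those of Angptl6, with 246 and 275 at 11 mM against 2294 and 2586 at 3 mM. Cyb5r1, a cytochrome b5 reductase gene, had 336 and 299 at 11 mM, against 2336 and 2630 at 3 mM. Myc had 39 and 32, against 269 and 225. Dusp4, which encodes a phosphatase of MAP kinases, was spread more widely, with 82 and 183 at 11 mM, against 1058 and 708 at 3 mM. 2410006H16Rik fell by 3.19, Gpr135 fell by 2.52 and Nrip2 fell by 2.36. Trib3, Mt1 and Mt2, also among the 15 largest falls, are described with their lists.

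**Figure D1:**
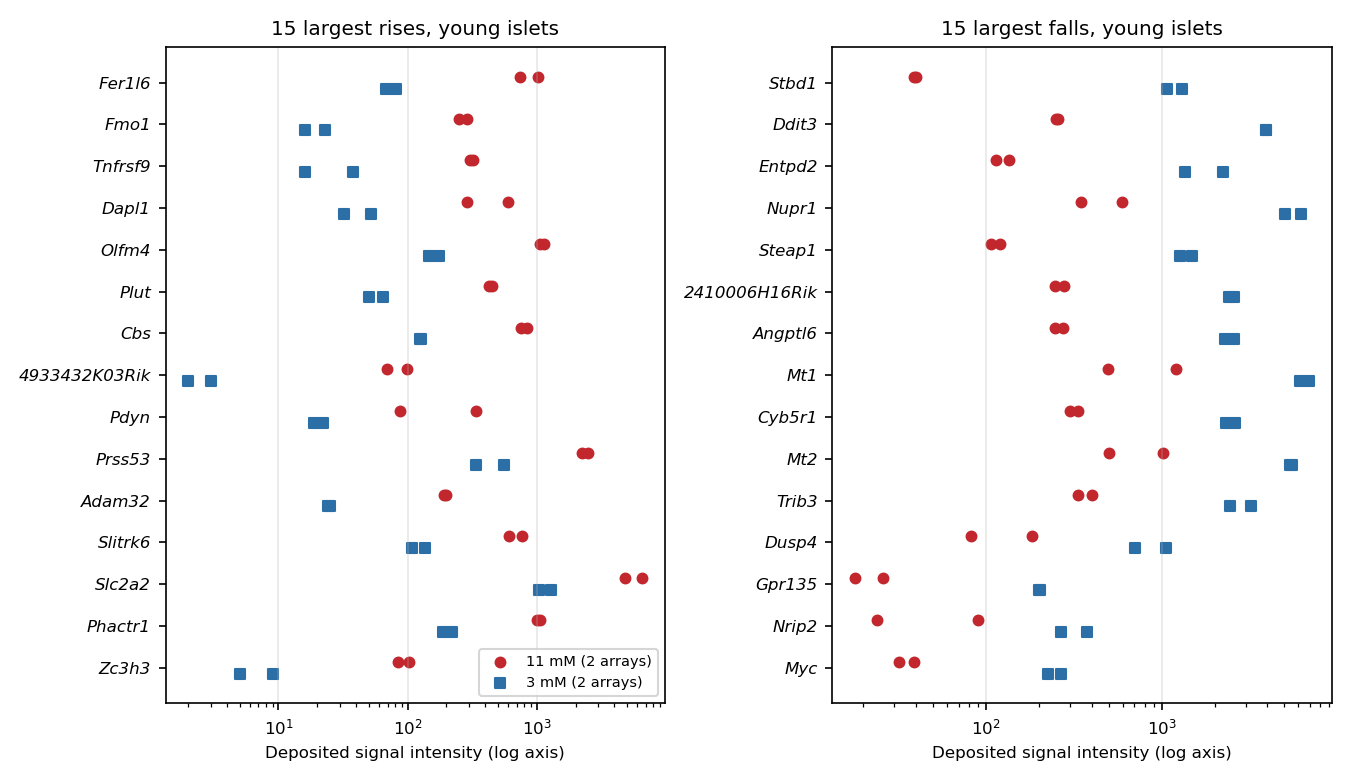
Deposited signal intensity (x axis, log scale) of the 15 genes with the largest rises (left) and the 15 with the largest falls (right) among genes past the threshold whose arrays do not overlap. Red circles are the 2 arrays at 11 mM and blue squares the 2 arrays at 3 mM; Stbd1 shows the widest gap, 39 and 40 at 11 mM against 1310 and 1067 at 3 mM.

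Many genes of beta cell identity and glucose sensing rose. Of the 22 measured genes of that list, 12 rose and none fell, against 13.3% higher and 13.1% lower among all genes. The median change of the list was 0.58, against 0.05 over all genes, and 4 more genes of the list were not analysed here. Slc2a2 had signals of 6589 and 4819 at 11 mM, against 1282 and 1049 at 3 mM. The lowest array at 11 mM was well above the highest at 3 mM, and Slc2a2 rose by 2.27 (SE 0.35, adjusted p = 9.4e-05). G6pc2, which encodes the islet glucose-6-phosphatase that opposes glucokinase, had 6701 and 6749 at 11 mM, against 1559 and 1503 at 3 mM. It rose by 2.12 (SE 0.22, adjusted p = 9.85e-07). Pcsk1, the prohormone convertase gene, had 1734 and 2715 at 11 mM, against 622 and 528 at 3 mM, and rose by 1.89 (SE 0.17, adjusted p = 2.27e-07). Mnx1, a homeobox gene of beta cell development, had 391 and 390, against 139 and 97, and rose by 1.62 (SE 0.23, adjusted p = 3.22e-05).

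The other islet transcription factors on the list changed less. Their members were picked for naming after their values were seen. Nkx2-2 rose by 0.79, Nkx6-1 by 0.70, Isl1 by 0.64, Pax6 by 0.59 and Neurod1 by 0.57. Ero1b, an oxidase of the endoplasmic reticulum that beta cells use in folding proinsulin, had 8076 and 6178 at 11 mM, against 3753 and 3899 at 3 mM, and rose by 0.88 (SE 0.15, adjusted p = 0.000303). The subunits of the potassium channel did not pass: the change was 0.19 for Abcc8 (adjusted p = 0.237) and -0.15 for Kcnj11 (adjusted p = 0.491).

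The hormone genes did not pass the test. Ins2, which encodes insulin 2, had 2880 and 2333 at 11 mM, against 3177 and 4549 at 3 mM, a change of -0.55 (SE 0.23, adjusted p = 0.0787). Ins2 passed as lower with the arrays centred on their medians, with a change of -0.67, and without replicate 1 at 3 mM, with -0.81. Gcg, the glucagon gene, had 9436 and 7895 at 11 mM, against 6694 and 8595 at 3 mM, a change of 0.19 (SE 0.18, adjusted p = 0.481), and its groups overlapped. Sst, the somatostatin gene, had 6736 and 6057, against 5066 and 5985, a change of 0.21 (SE 0.13, adjusted p = 0.265). Ins2 was read by 1 probe set, and on each of the 4 arrays its signal lay below those of Gcg and Sst. How far that probe set follows the amount of Ins2 mRNA was not tested. The cre-3 hybridization control read 7079 and 5722 at 11 mM, against 5020 and 5841 at 3 mM. Its part in the hormone values was not tested. In whole islets fewer cells of a type and less RNA per cell cannot be told apart.

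Genes of granule docking and exocytosis moved the same way. Of 20 measured genes 11 rose and none fell, against 13.3% higher and 13.1% lower among all genes, and the median change was 0.47. Sytl4, which encodes granuphilin, a protein that docks insulin granules, had 4094 and 3599 at 11 mM, against 1558 and 1244 at 3 mM, and rose by 1.45 (SE 0.15, adjusted p = 7.24e-07). Exph5, the gene of another effector of the granule GTPase RAB27, had 1310 and 1212, against 590 and 589, and rose by 1.07 (SE 0.14, adjusted p = 1.42e-05). Syt13 rose by 0.77 and Snap25, of the fusion complex, by 0.71, with 0.25 by the other probe set of Snap25. The count was sensitive to single arrays: 5 genes passed as higher without replicate 2 at 11 mM, and 7 without replicate 1 at 3 mM. It was also 7 as the mean of a gene's probe sets, where 1 gene passed as lower, and 7 with each array centred on its median.

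About as many lipid synthesis genes rose as did not pass. Among ChREBP targets and lipogenesis genes 9 of 20 rose and none fell (median 0.54), and among cholesterol synthesis genes 10 of 20 rose and none fell (median 0.54). The shares over all genes were 13.3% higher and 13.1% lower. Scd2, a fatty acid desaturase gene, had 1372 and 2727 at 11 mM, against 562 and 624 at 3 mM, and rose by 1.68 (SE 0.25, adjusted p = 5.55e-05), with 0.66 by the weakest of its 3 probe sets. Fasn, the fatty acid synthase gene, had 629 and 642, against 295 and 340, and rose by 0.97 (SE 0.13, adjusted p = 3.03e-05). Acly, which encodes the enzyme that makes cytosolic acetyl-CoA from citrate, had 5253 and 4330, against 2413 and 2449. It rose by 0.97 (SE 0.14, adjusted p = 4.95e-05), but its 5 probe sets gave changes of 0.34 to 1.08, and the one that is brightest on these 4 arrays did not pass.

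Txnip, which encodes a thioredoxin-binding protein that limits glucose uptake, had 722 and 876 at 11 mM, against 356 and 370 at 3 mM. Its groups did not overlap, and Txnip rose by 1.10 (SE 0.20, adjusted p = 0.000361). Arrdc4, its paralogue, had 102 and 110, against 69 and 77, and the change of 0.46 did not pass (adjusted p = 0.0649). Idi1, which encodes isopentenyl-diphosphate isomerase of the sterol pathway, had 374 and 776 at 11 mM, against 113 and 135 at 3 mM, and rose by 1.99 (SE 0.29, adjusted p = 4.29e-05). Stard4, a sterol carrier gene, had 183 and 264, against 65 and 85, and rose by 1.38, with 0.53 by the weakest of its 3 probe sets. Tm7sf2, a sterol reductase gene, rose by 1.33, and Insig1, the sterol-regulated brake on this pathway, by 1.20. For Scd2, Idi1, Stard4 and Insig1 replicate 2 was the higher array at 11 mM, and the lower of the 2 still lay above both arrays at 3 mM.

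**Figure D2:**
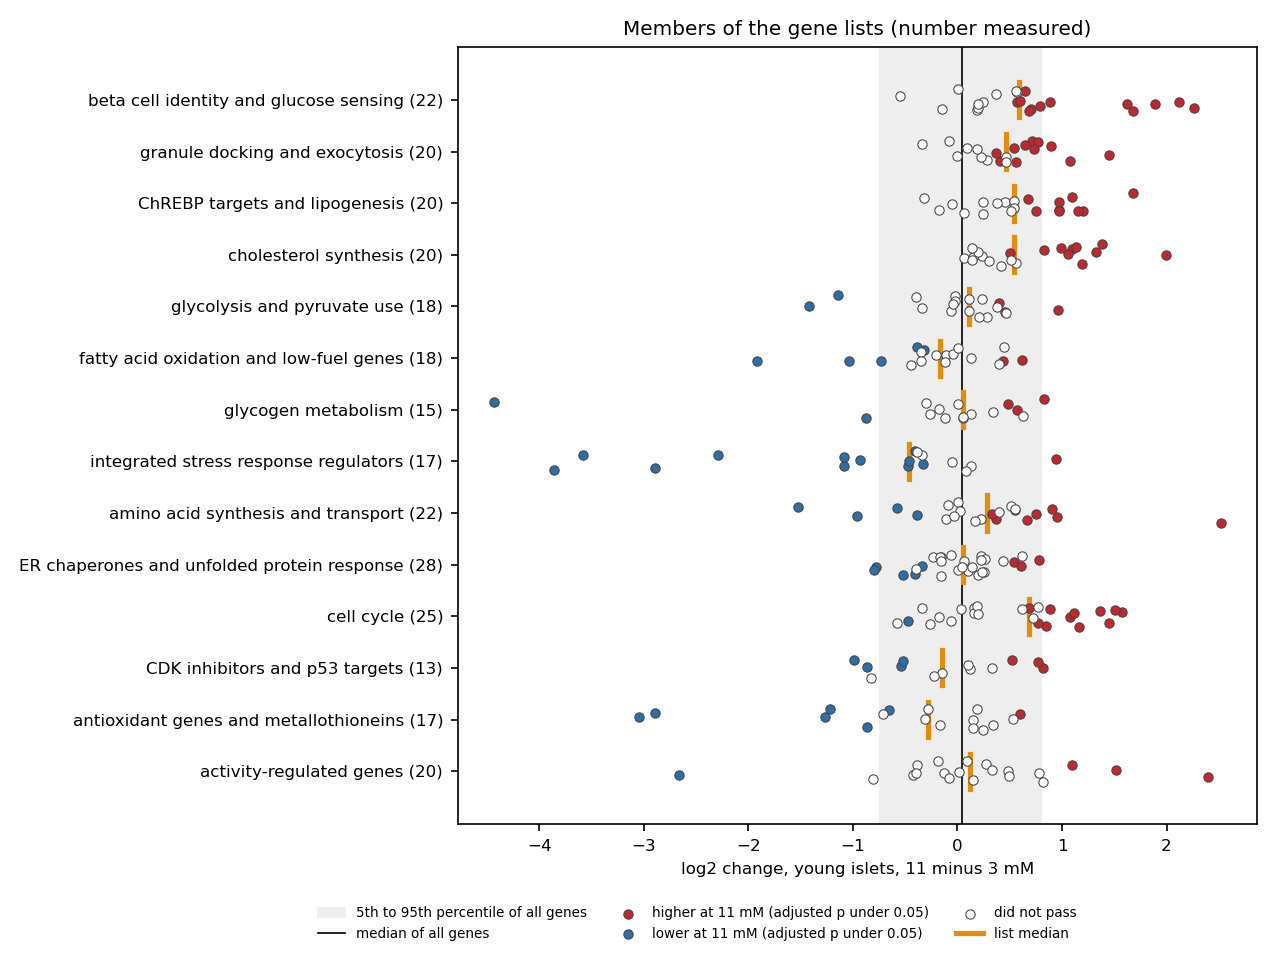
Log2 change of each measured gene (x axis, 11 mM minus 3 mM) in the 14 gene lists (y axis, number measured in brackets). Red circles passed as higher at 11 mM, blue as lower and white did not pass; orange bars are list medians, the line and grey band the median and the 5th to 95th percentile of all genes. The integrated stress response list has 11 of 17 genes in blue, and the exocytosis list 11 of 20 in red. Among all genes 13.1% passed as lower and 13.3% as higher.

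Most genes of the integrated stress response list fell. Of its 17 measured genes 11 fell and 1 rose, against 13.1% lower and 13.3% higher among all genes, and the median change was -0.47. Besides Ddit3 and Nupr1, Trib3, which encodes a pseudokinase induced by CHOP, had 401 and 335 at 11 mM, against 2464 and 3233 at 3 mM. It fell by 2.89 (SE 0.30, adjusted p = 1.13e-06). Ppp1r15a, which encodes the GADD34 subunit that restarts translation, had 195 and 213, against 1001 and 1118, and fell by 2.29 (SE 0.18, adjusted p = 5.02e-08). Atf3, whose promoter is shown above, had 37 and 61, against 93 and 152, and fell by 1.08 (SE 0.35, adjusted p = 0.0289). Atf4 itself moved least among those that fell, with 2620 and 2610 at 11 mM, against 3081 and 3527 at 3 mM, and a change of -0.33 (SE 0.12, adjusted p = 0.0453).

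Members of the same list did not all fall. Chac1, which encodes a glutathione-degrading enzyme and carries the same element, had 1279 and 999 at 11 mM, against 1019 and 1050 at 3 mM. Its groups overlapped and it did not pass (change 0.13, SE 0.16, adjusted p = 0.621). Ddit4, which encodes an inhibitor of the growth kinase mTORC1, had 232 and 383, against 107 and 203, and rose by 0.94 (SE 0.34, adjusted p = 0.0471). Without replicate 2 at 3 mM, 7 genes of the list passed as lower. Ddit4 accounts for the 1 rise, and no gene of the list passed as higher without replicate 2 at 11 mM or without replicate 1 at 3 mM.

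Amino acid synthesis and transport genes were split. Of 22 measured genes 8 rose and 4 fell (median 0.28), against 13.3% higher and 13.1% lower among all genes. On the rising side, beside Cbs, stood Psat1 of serine synthesis, with 811 and 945 at 11 mM against 444 and 445 at 3 mM and a rise of 0.95, and Asns, the asparagine synthetase gene, with 3168 and 3425 against 2270 and 2233 and a rise of 0.55. Slc3a2, which encodes the heavy chain shared by several amino acid exchangers, had 2055 and 1737, against 3389 and 4035, and fell by 0.96 (SE 0.12, adjusted p = 1.42e-05). Got1, the cytosolic aspartate aminotransferase gene, had 166 and 154, against 590 and 405, and fell by 1.52 (SE 0.21, adjusted p = 3.08e-05). Slc38a4, an amino acid transporter gene, rose by 0.75 by its brightest probe set over all arrays, and its 2 probe sets gave changes of opposite sign, -0.25 and 0.75. Without replicate 2 at 11 mM, 4 genes of the list passed as higher and 2 as lower, and without replicate 1 at 3 mM, 5 passed as higher and 4 as lower. The lower count was also 2 without replicate 1 at 11 mM and without replicate 2 at 3 mM.

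Metallothionein genes fell with part of the antioxidant list, in which 6 of 17 genes fell and 1 rose (median -0.28). Over all genes 13.1% fell and 13.3% rose. Mt1 had 1210 and 495 at 11 mM, against 6121 and 6919 at 3 mM, and Mt2 had 1018 and 504, against 5485 and 5408. The encoded proteins bind zinc and copper. Mt1 fell by 3.04 (SE 0.32, adjusted p = 1.17e-06) and Mt2 fell by 2.90 (SE 0.25, adjusted p = 8.47e-08), and replicate 1 at 11 mM was the higher array of its group for both. Slc30a1, which encodes a zinc exporter of the cell membrane, had 332 and 174, against 624 and 579, and fell by 1.26. Cat, the catalase gene, had 189 and 178, against 343 and 581, and fell by 1.22 (SE 0.19, adjusted p = 8.68e-05), with -0.76 by its other probe set. Sod2, the mitochondrial superoxide dismutase gene, fell by 0.86 by its brightest probe set, while its 4 probe sets ranged from -0.86 to 0.47.

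Part of the cell cycle list was higher at 11 mM. Of 25 measured genes 11 rose, 13 did not pass and 1, Cdk4, fell, and the median change was 0.68. Over all genes the shares were 13.3% higher and 13.1% lower. Mki67, the gene of the proliferation marker Ki-67, had signals of 121 and 246 at 11 mM, against 49 and 46 at 3 mM. Both arrays at 11 mM lay above both at 3 mM, and Mki67 rose by 1.58 (SE 0.26, adjusted p = 0.00017). Top2a, the topoisomerase gene of dividing cells, had 102 and 193, against 33 and 46, and rose by 1.51 (SE 0.28, adjusted p = 0.000435), with 0.58 by its other probe set. Ccna2, the cyclin A2 gene, had 58 and 93, against 11 and 24, and Aurka, a mitotic kinase gene, had 45 and 71, against 19 and 7. They rose by 1.45 and 1.36. Replicate 2 at 11 mM was the higher array for all 4 of these genes. Without it 6 genes of the list passed as higher and none as lower, and without replicate 1 at 3 mM 7 passed as higher.

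Genes that restrain the cycle or answer to p53 went both ways, 3 of 13 higher and 4 lower, against 13.3% and 13.1% of all genes. Ccng1, a p53 target, had 1774 and 1857 at 11 mM, against 3760 and 3463 at 3 mM, and fell by 0.99 (SE 0.14, adjusted p = 4.67e-05), and its 3 probe sets gave -2.04 to -0.99. Cdkn1a, which encodes the inhibitor p21, had 390 and 591, against 919 and 858, and fell by 0.86 (SE 0.23, adjusted p = 0.00809); the call was lost without replicate 1 at 11 mM and without replicate 1 at 3 mM, with changes of -0.57 and -0.82. Sesn1 and Btg2, other p53 targets, rose by 0.81 and 0.77, and the 4 probe sets of Sesn1 gave 0.30 to 1.01. The lower count of the list was 1 without replicate 1 at 3 mM and 2 without either replicate at 11 mM.

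Fuel genes outside lipid synthesis changed in both directions. In glycolysis and pyruvate use 3 of 18 genes rose and 2 fell, in glycogen metabolism 3 of 15 rose and 2 fell, and in fatty acid oxidation and low-fuel genes 2 of 18 rose and 5 fell. The shares called were 27.8%, 33.3% and 38.9%, against 26.4% of all genes. The medians were 0.11, 0.05 and -0.16, and the first 2 are below 0 with each array centred on its median. Pcx, which encodes pyruvate carboxylase, had 820 and 704 at 11 mM, against 399 and 365 at 3 mM, and rose by 0.96. Slc2a1, which encodes the transporter GLUT1, had 221 and 209, against 554 and 657, and fell by 1.42 (SE 0.28, adjusted p = 0.000948). Eno2, a neuronal and endocrine enolase gene, had 175 and 155, against 408 and 360, and fell by 1.14.

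Depp1, a FOXO target in fasting, had 282 and 322 at 11 mM, against 1028 and 1367 at 3 mM, and fell by 1.92 (SE 0.42, adjusted p = 0.00187). Plin2, the lipid droplet coat gene, had 369 and 252, against 718 and 575, and fell by 1.04. Cpt1a, of mitochondrial fatty acid import, had 259 and 182, against 417 and 330, a change of -0.73 that was no longer called without replicate 2 at 11 mM (-0.49) or without replicate 1 at 3 mM (-0.57). Gyg, which encodes the glycogenin that primes glycogen, had 625 and 654, against 1156 and 1220, and fell by 0.88. Counts in these 3 lists are of a few genes and moved by up to 3 when single arrays were left out: in the fatty acid oxidation list, 1 gene passed as higher and 2 as lower without replicate 2 at 11 mM, and likewise without replicate 1 at 3 mM. Further, 1 glycolysis gene and no oxidation gene passed as higher without replicate 2 at 3 mM, and 1 oxidation gene without replicate 1 at 11 mM. In glycogen metabolism 1 passed as higher without replicate 2 at 3 mM, and 1 without replicate 1 at 11 mM.

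The chaperone and unfolded protein response list stayed near the background, with 3 of 28 genes higher and 5 lower (28.6% called, against 26.4% of all genes). Hspa5, the gene of the main chaperone BiP, had 5440 and 6427 at 11 mM, against 7285 and 9882 at 3 mM, and fell by 0.52 (SE 0.19, adjusted p = 0.049). Ern1, which encodes the sensor IRE1, had 2010 and 1767, against 3040 and 3461, and fell by 0.78 (SE 0.13, adjusted p = 0.000162), with -0.87 to -0.12 over its 4 probe sets. Sec24d, of the vesicle coat for export, had 1849 and 2116, against 1155 and 1133, and rose by 0.78. With each array left out in turn, 1 to 5 genes of this list passed as higher and 1 to 4 as lower, with 5 higher and 1 lower without replicate 1 at 11 mM. Activity-regulated genes were also few: 3 of 20 rose and 1 fell (20% called). Beside Pdyn, Nr4a2, the gene of an orphan nuclear receptor, had 109 and 204, against 47 and 37, and rose by 1.52, while its 6 probe sets gave 0.05 to 1.52. Crem, a cAMP-response gene, had 202 and 364, against 118 and 119, and rose by 1.10. Without replicate 2 at 11 mM the change of Crem was 0.70 and did not pass, and 2 genes of the list passed as higher.

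Islet cell markers were present on all 4 arrays, with signals of the hormone genes Ins2, Gcg, Sst, Ppy and Pyy between 2333 (Ins2) and 10497 (Ppy). None of the 5 alpha, 3 delta and 2 PP cell markers measured passed. Acinar cell markers summed to 1458 and 1800 at 11 mM, against 882 and 1128 at 3 mM, and 1 of 14 rose, Bhlha15, by 0.86 (adjusted p = 0.046). Of 13 macrophage markers 2 rose, C1qa by 1.52 and Adgre1 by 0.71, while C1qb (-0.20) and C1qc (-0.30), which encode the other chains of the same complement protein, did not pass. The summed macrophage signal overlapped, with 2000 and 1262 at 11 mM, against 1597 and 1329 at 3 mM. Duct markers Krt18 and Krt7 fell by 0.61 and 0.39, and their list summed to 5727 and 5785, against 7542 and 6999. Among 10 endothelial markers Kdr fell by 0.75, and the list summed to 404 and 392, against 471 and 523. No stellate, Schwann or lymphocyte marker passed. The shares called were 7.14% of acinar, 15.4% of macrophage, 33.3% of duct and 10% of endothelial markers, against 26.4% of all genes. The median changes were 0.55, -0.20, -0.11 and -0.04 in the same order, against 0.05 over all genes, so the acinar markers leaned higher although few passed. The duct, acinar and endothelial calls were weak, with an adjusted p of 0.0145 for Krt18, 0.0438 for Krt7, 0.046 for Bhlha15 and 0.0471 for Kdr. Both duct calls were lost without replicate 2 at 11 mM or replicate 1 at 3 mM. The acinar call was lost without replicate 2 at 11 mM or either replicate at 3 mM, and the endothelial call whichever of the 4 arrays was left out. Such fits leave 1 array in a group, so a call near the threshold can be lost without any array standing apart. Of the macrophage markers 1 or 2 passed as higher whichever array was left out, and 1 passed as lower without replicate 1 at 11 mM. The part of these cells in the results was not tested.

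Levels at 5.5 mM describe the largest responses further. The mean signal at 5.5 mM lay between those at 3 and 11 mM for all 15 of the largest rises and all 15 of the largest falls. These genes were picked for a wide gap between the same arrays at 3 and 11 mM, so the count does not test for a graded response. Dusp4 at 5.5 mM (205 and 64) was already at its level at 11 mM. Between 11 and 5.5 mM 408 genes passed (3.24%), 184 higher (1.46%) and 224 lower (1.78%), or 930 with the replicate number as a block. Of the 15 largest rises 11 were still higher at 11 mM than at 5.5 mM, and of the 15 largest falls 12 were still lower. Those 2 counts reuse the arrays at 11 mM by which the genes were picked. Without replicate 2 at 11 mM 102 genes passed, and without replicate 1 at 5.5 mM 82. Between 16 and 11 mM 1 gene passed (0.00795%), Tle3, and 1062 had an unadjusted p under 0.05. With the replicate number as a block 77 passed. The count was 57 without replicate 2 at 11 mM and 49 without replicate 1 at 16 mM, and none without replicate 1 at 11 mM or replicate 2 at 16 mM.

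The shape of the curve differed from gene to gene. Pdx1 had 486 and 579 at 3 mM, 1329 and 1512 at 5.5 mM, 1765 and 1696 at 11 mM, and 1685 and 1587 at 16 mM. Mnx1 had 139 and 97, 339 and 344, 391 and 390, and 389 and 452 in the same order. Most of the climb of both genes was therefore made by 5.5 mM, and neither passed between 11 and 5.5 mM. Txnip had 356 and 370 at 3 mM, 406 and 353 at 5.5 mM, 722 and 876 at 11 mM, and 1650 and 1945 at 16 mM. It rose between 5.5 and 11 mM (1.04, adjusted p = 0.00424), and its further climb to 16 mM missed the threshold (adjusted p = 0.058). Mki67 had 49 and 46, 58 and 43, 121 and 246, and 174 and 231, so that it stood at its low level through 5.5 mM. Ddit3 had 3901 and 3908 at 3 mM, 1756 and 1279 at 5.5 mM, 257 and 251 at 11 mM, and 258 and 226 at 16 mM. Depp1, with 257 and 293 at 5.5 mM, and Slc2a1, with 207 and 243, were at their 11 mM level by 5.5 mM.

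**Figure D3:**
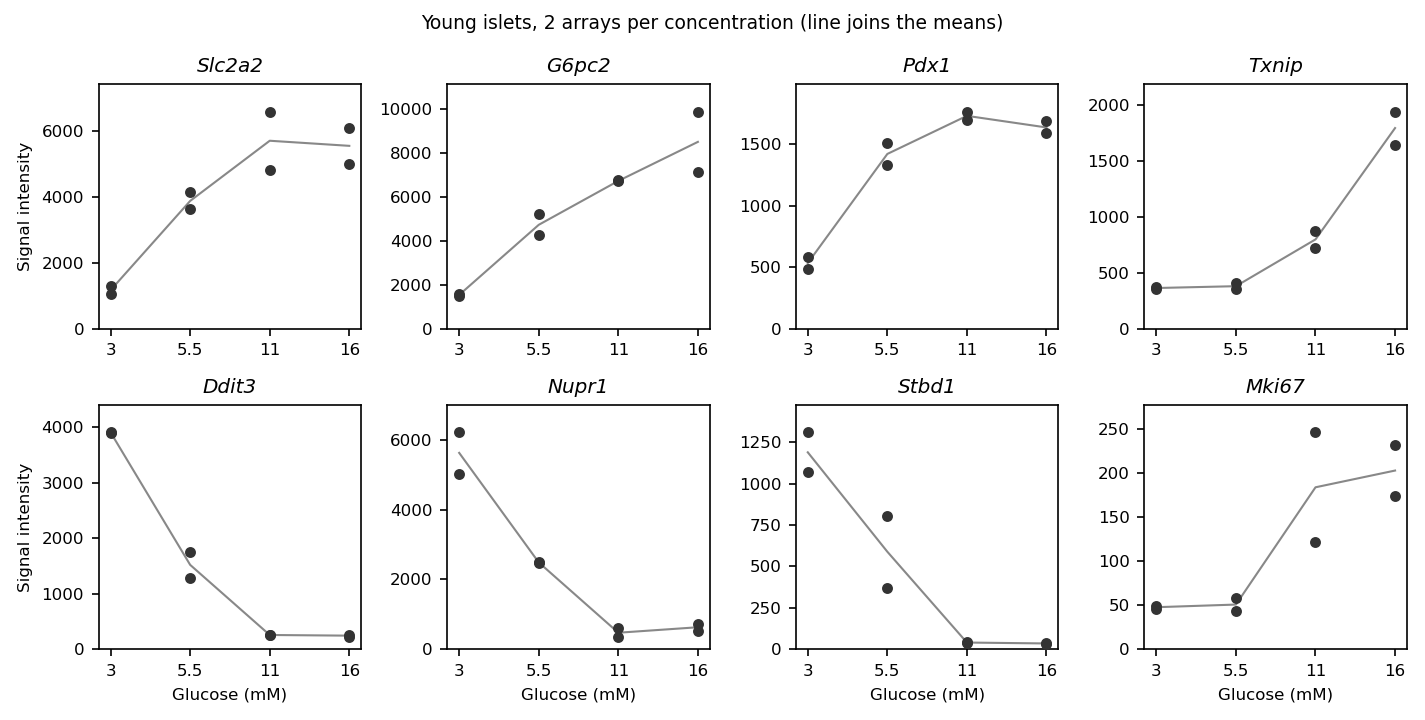
Signal intensity (y axis) of 8 genes in young islets against the glucose concentration of the 2-day culture (x axis, 3 to 16 mM, evenly spaced categories). Points are single arrays, 2 per concentration, and lines join their means. Pdx1 is near its plateau at 5.5 mM (1329 and 1512), while Txnip climbs up to 16 mM (1650 and 1945).

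The same comparison in old islets shares no array with the young one. The 4 old arrays have a high Gapdh ratio (1.33 to 1.41), so each response lies within arrays of a like ratio, while age and ratio cannot be told apart in a difference between the ages. In old islets 3090 genes changed at 11 against 3 mM (24.6%, of them 13.9% higher and 10.6% lower among all genes). In both ages 1935 genes changed the same way, 58.3% of the young calls and 62.6% of the old ones. The other 2 genes called in both were Brap and Slc35c2, named here for that reason. Brap rose by 0.41 in young and fell by 0.55 in old islets, and Slc35c2 fell by 0.52 in young and rose by 0.52 in old islets. Among all 3320 young calls 94.6% had the same sign in old islets, against 74.9% of all genes. The correlation of the 2 changes across the 12580 genes was 0.729, which is a description, since genes are not independent.

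All 15 of the largest rises also rose in old islets, and 13 of the 15 largest falls also fell. Slc2a2 had 6884 and 4765 at 11 mM in old islets, against 817 and 695 at 3 mM, a rise of 2.90, and in young islets the rise was 2.27. The exceptions among the falls were Gpr135 (-0.64, adjusted p = 0.167 in old islets) and Nrip2 (-0.69, adjusted p = 0.184). Nrip2 in old islets had 9 and 3 at 11 mM, against 15 and 24 at 3 mM. These signals are below the median signal of an array, where a fall can hardly show. By list, 16 of 22 beta cell, 12 of 20 exocytosis, 11 of 20 ChREBP and lipogenesis and 7 of 20 cholesterol synthesis genes rose in old islets, against 13.9% of all genes, and none of them fell. In the stress response list 6 of 17 fell, against 10.6% of all genes, 1 rose, and the median was -0.20. The rise was that of Chac1, with 960 and 1280 at 11 mM in old islets, against 498 and 545 at 3 mM. Its change was 1.07 (adjusted p = 9.91e-05), and the difference from its young response did not pass (adjusted p = 0.109). In the cell cycle list 4 of 25 genes rose in old islets, a share near that of all genes, and the median was -0.02. The test of the difference between the ages, described next, called 1 gene of this list, Mki67, and 24 did not pass.

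The test of the difference between the young and old responses called 18 genes (0.143%), 5 with a more positive (0.0397%) and 13 with a more negative response (0.103%) in young islets. Mki67 had 121 and 246 at 11 mM in young islets, against 49 and 46 at 3 mM, and in old islets 7 and 4, against 18 and 15. Its young response exceeded the old one by 2.18 (SE 0.37, adjusted p = 0.0218). The old signals are below the median signal of an array. Nupr1 in old islets had 1846 and 2018 at 11 mM, against 6567 and 5969 at 3 mM, a change of -1.69 beside -3.58 in young islets. The difference of responses was -1.89 (SE 0.30, adjusted p = 0.0218). Entpd2 in old islets had 74 and 87 at 11 mM, against 395 and 444 at 3 mM, and the difference of responses was -1.47 (SE 0.29, adjusted p = 0.0469).

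Several of the 18 genes responded in 1 age while missing the threshold in the other. Cln3, which encodes a lysosomal membrane protein, had 225 and 188 at 11 mM in young islets, against 587 and 608 at 3 mM, and 149 and 204 in old islets, against 164 and 215. The difference was -1.37 (SE 0.23, adjusted p = 0.0218). Tob1, which encodes an antiproliferative protein, had 837 and 1040 at 11 mM in young islets, against 336 and 358 at 3 mM, and 1326 and 1372 in old islets, against 1217 and 1127, a difference of 1.19 (SE 0.20, adjusted p = 0.0218). Fdx1, a mitochondrial ferredoxin gene outside the rule for named genes, fell by 1.05 in young islets and had -0.13 in old islets. Gaa, which encodes the lysosomal enzyme that digests glycogen, had -0.24 in young islets, where it did not pass, and rose by 0.67 in old islets. Cln3 has 2 probe sets, with young changes of -1.47 and -0.02. With the replicate number as a block in the young arrays, and no block in the old ones, the test called 121 genes. No gene passed without replicate 2 of young islets at 3 mM, replicate 2 of old islets at 11 mM or replicate 1 of old islets at 3 mM. The count was 1 without replicate 2 of young islets at 11 mM, 3 without replicate 1 of young or replicate 2 of old islets at 3 mM, and 10 without replicate 1 of old islets at 11 mM.

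**Figure D4:**
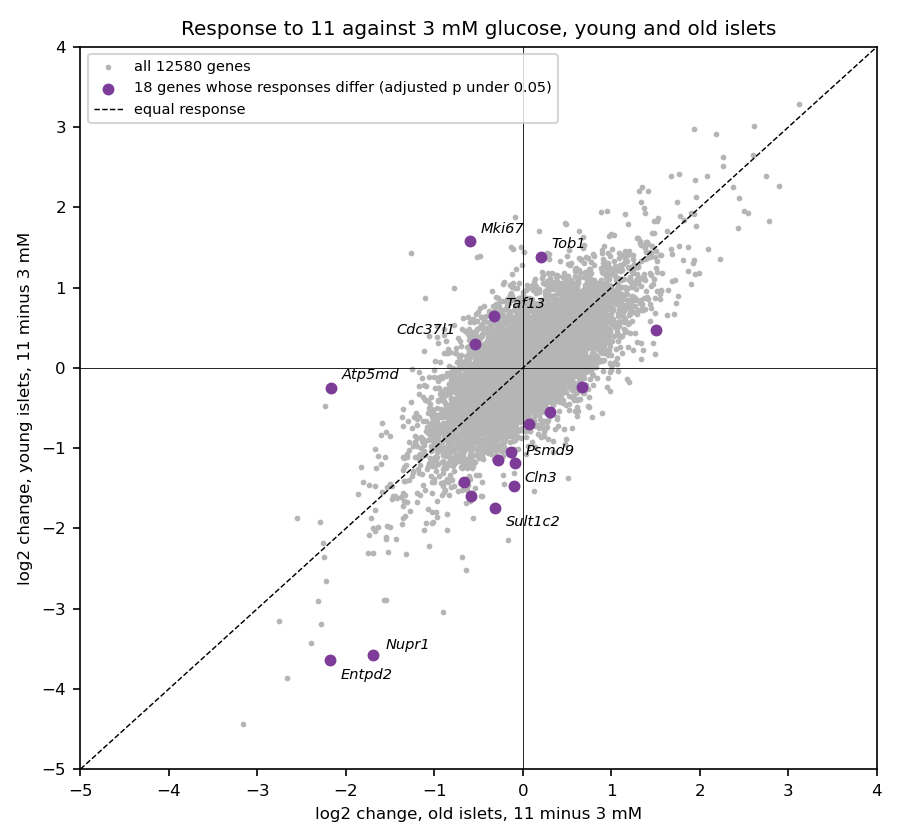
Log2 change at 11 minus 3 mM in young islets (y axis) against that in old islets (x axis) for 12580 genes (grey). Purple circles are the 18 genes whose responses differ at an adjusted p under 0.05, with names for the 5 largest differences in each direction; the dashed line marks equal responses. Mki67 stands at 1.58 in young and -0.60 in old islets.

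The time course asked how much of the 2-day difference was present within hours. Glucose and hours in culture change together in it and cannot be told apart. After 4 h at 11 mM 1428 genes differed from time 0 (11.4%), 719 higher (5.72%) and 709 lower (5.64%). After 1 h 33 genes did (0.262%), 23 higher (0.183%) and 10 lower (0.0795%). In the same direction, 692 genes were called at 4 h and after 2 days, 20.8% of the 2-day calls and 48.5% of those at 4 h, and 36 went opposite ways. Of the named genes 8 of the 15 largest falls were already lower at 4 h, and 2 of the 15 largest rises, Slitrk6 and Phactr1, were already higher.

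Ddit3 had 3681 and 3397 at time 0, 1528 and 1507 at 1 h, and 308 and 423 at 4 h, so that its level at 4 h was near that of the 2-day culture at 11 mM. It fell by 1.21 at 1 h (adjusted p = 0.00688) and by 3.24 at 4 h (adjusted p = 5.77e-09). Trib3 had 1622 and 1464, 780 and 1043, and 179 and 152 in the same order, and fell by 3.11 at 4 h. Nupr1 kept a slower pace, with 4119 and 3499, 3681 and 3347, and 2699 and 2483, and did not pass at 4 h (adjusted p = 0.103). Mt1 had 7779 and 6840, 8360 and 6026, and 5890 and 5501, and did not pass at 4 h either. Stbd1 stood between these, with 892 and 1147, 716 and 981, and 235 and 384, a fall of 1.70 at 4 h (adjusted p = 0.000395).

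At 4 h 1 of the 22 beta cell genes, Neurod1, was higher, a share near the 5.72% of all genes. Slc2a2 had 2394 and 1251 at time 0, 2329 and 972 at 1 h, and 1642 and 698 at 4 h. Its change of -0.68 did not pass (adjusted p = 0.251), and replicate 1 was the higher array at each time. Of the lipid genes, 4 of 20 ChREBP and lipogenesis genes were higher at 4 h. Txnip had 328 and 259, 304 and 270, and 884 and 773, a rise of 1.45 at 4 h (adjusted p = 7.47e-05), and Fasn had 224 and 248, 314 and 348, and 593 and 466, a rise of 1.11. In the stress response list 11 of 17 genes were lower at 4 h and 3 at 1 h (Atf4, Chac1 and Ddit3), against 5.64% and 0.0795% of all genes. Chac1, not called in the 2-day comparison, had 770 and 752 at time 0, 263 and 350 at 1 h, and 162 and 132 at 4 h, a fall of 2.26 (adjusted p = 7.22e-08). Amino acid genes were 1 higher and 8 lower at 4 h, against 8 higher and 4 lower after 2 days. Shmt2, of mitochondrial one-carbon metabolism, rose by 0.67 after 2 days and fell by 0.50 at 4 h.

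**Figure D5:**
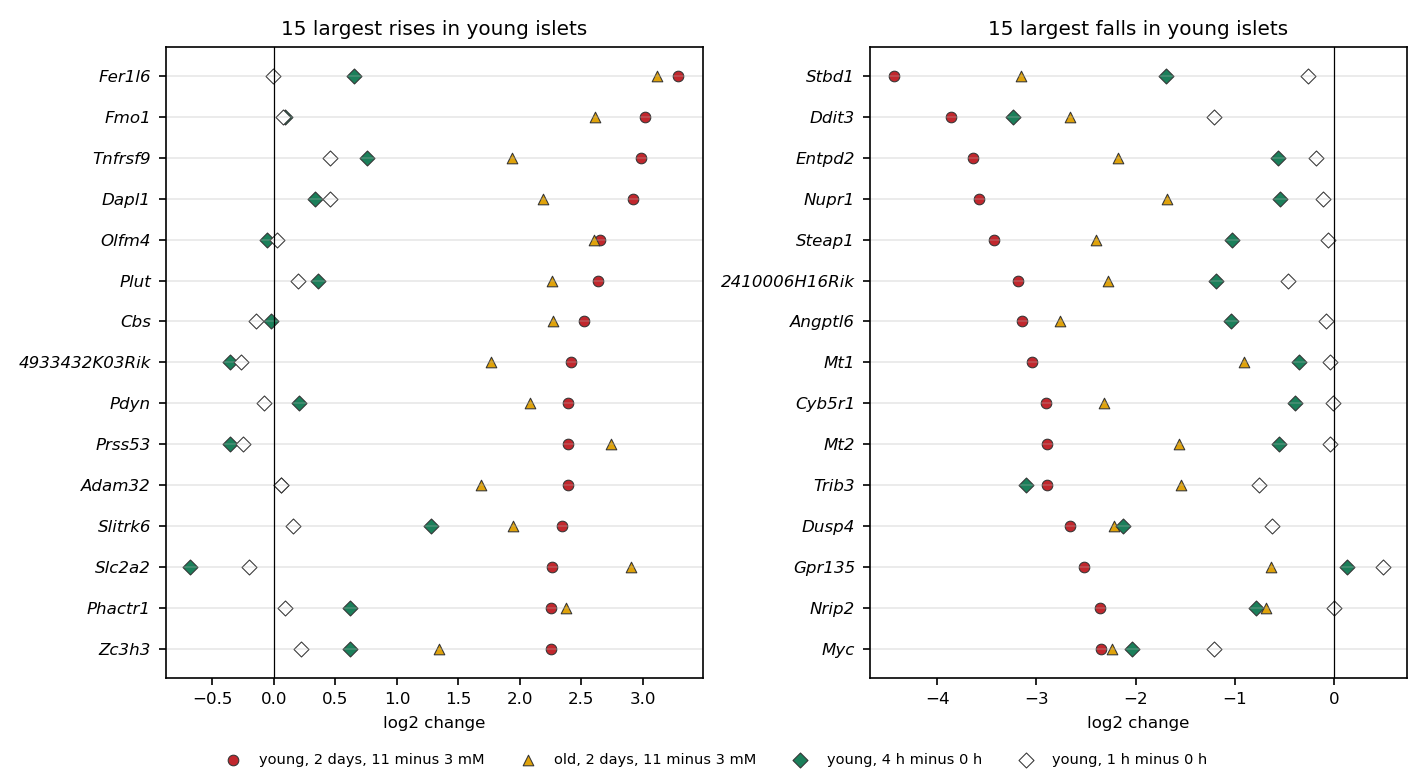
Log2 change (x axis) of the 15 largest rises (left) and falls (right) in young islets after 2 days at 11 minus 3 mM (red circles), beside the same comparison in old islets (yellow triangles) and young islets at 4 h (green diamonds) and 1 h (white diamonds) of 11 mM minus time 0. Trib3 is as low at 4 h (-3.11) as after 2 days (-2.89), while Slc2a2 is at -0.68 at 4 h and at 2.27 after 2 days.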

How the data were processed

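Total RNA of islets (Trizol, 50 ng amplified in 2 cycles, per the labels' protocols) was hybridised to Affymetrix mouse arrays. The deposited values are signal intensity per probe set, computed by the authors; MAS5 is named in the submitters' processing notes (version not given in the sources used here). They are whole numbers with a mean of 150 on every array after trimming 2% at each end. Detection calls were not used. Names come from the platform annotation, in which 34945 of 45101 probe sets have 1 symbol, 932 several, 9160 none and 64 are controls. Symbols of 34741 were updated through Entrez identifiers with a table of GRCm38.p6.

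Kept were 23047 probe sets brighter than the median of their array on 2 or more of the 26 arrays, and the brightest over all arrays stood for each of 12580 genes. On log2(value + 16), limma 3.58.1 (R 4.3.3) estimated 13 group means over 26 arrays, with young islets at 11 mM split into replicates 1 and 2 and replicates 3 and 4 (intensity trend, 13 residual and 7.02 prior degrees of freedom). Simulated data with known changes served as a test of the fit. The contrasts of 11 against 3 mM in old islets and of 1 and 4 h against time 0 were computed beside the 4 planned ones. Same-numbered young cultured arrays deviated together, so they may be pairs. The correlations of deviations were 0.169 to 0.417 over 6 pairs of groups, with 0.169 between 3 and 11 mM. The SEs and adjusted p-values of genes come from the fit without a block for the replicate number. Blocked counts are given beside the others where they differ by over 1.5 times. The block covers the young cultured arrays (replicates 1 and 2) and the time course, and the old arrays have none. No 2 arrays hold identical values. The members, gene lists and tests were chosen with earlier results of these data known. Named are the 15 largest rises and falls past the threshold with arrays that do not overlap, up to 4 genes of each pathway list by adjusted p, 8 fixed genes, and the 5 largest young minus old differences in each direction. Other genes named were chosen after their values were seen. The number of arrays limits the precision. Alternatives tried cover the offset, filter, probe set, scaling, arrays in the fit, pairing and each left-out array.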

Additional observations from a re-analysis of the deposited data

Results flagged for a closer look

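The test of the difference between young and old islets passed for 18 genes, and the 10 given here are the 5 largest differences in each direction. Which genes pass depends on single arrays, and age and the Gapdh ratio cannot be told apart in these differences. The Mki67 signals of old islets are below the median signal of an array. The values are the young response minus the old one on the log2 scale. The response of young islets was the more positive for Mki67 (2.18), Atp5md (1.92), which encodes a small protein of the mitochondrial ATP synthase, Tob1 (1.19), Taf13 (0.96), which encodes a subunit of the general transcription factor TFIID, and Cdc37l1 (0.83), a gene related to an Hsp90 cochaperone. It was the more negative for Nupr1 (-1.89), Entpd2 (-1.47), Sult1c2 (-1.43), a sulfotransferase gene, Cln3 (-1.37) and Psmd9 (-1.10), the gene of a proteasome assembly factor.

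Atp5md differed through the old islets: it had 362 and 681 at 11 mM in young islets, against 617 and 570 at 3 mM, and 414 and 528 in old islets, against 2163 and 2154. Sult1c2 differed through the young ones, with 139 and 124 at 11 mM, against 414 and 548 at 3 mM, and 230 and 241 in old islets, against 264 and 333. The young changes of Psmd9 over its 3 probe sets ran from -1.19 to 0.77, and those of Cdc37l1 over its 6 probe sets from -1.26 to 0.29.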

How the results depend on the processing

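The count of 3320 genes stayed within 1.5 times under all alternatives but 3: replicates 3 and 4 at 11 mM gave 6464, across the array ratio, and the count was 1919 without replicate 2 at 11 mM and 1929 without replicate 1 at 3 mM (1919 to 2573 over the 4 arrays left out in turn). The replicate block gave 4107. The difference between young and old (18 genes) gave 33 with an offset of 64, 8 with the mean of probe sets, 6 without the intensity trend, 11 with only the arrays compared, 1 with all 4 arrays at 11 mM in 1 mean, 3755 with replicates 3 and 4, 121 with the replicate block, and 0 to 21 with an array left out. The 16 against 11 mM count (1 gene) was 3 with an offset of 1 or 64, 2 with median centring or all 4 arrays in 1 mean, 5369 with replicates 3 and 4, 77 with the replicate block, 0 to 57 with an array left out, and 0 without a filter, with the mean of probe sets, quantile normalization or no trend, or with only the arrays compared or the 8 cultured young arrays. The 11 against 5.5 mM count (408) was 44 with only the arrays compared, 126 with the 8 cultured young arrays, 618 with all 4 arrays in 1 mean, 5339 with replicates 3 and 4, 930 with the replicate block, and 82 to 484 with an array left out.

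Over 87 named genes and 18 alternatives, 1513 of 1566 changes kept their direction and side of the threshold, 32 lost the call, 12 gained it and 9 reversed. With replicates 3 and 4 the change was -0.53 for Ehhadh, 0.23 for Ins2, -0.22 for Sesn1, -0.23 for Taf13 and -0.995 for Wfs1, and Wfs1 had -0.20 with all 4 arrays in 1 mean. Atp5md had -0.69 to 0.19 with an array left out, 0.19 without replicate 1 at 11 mM, Cdc37l1 -0.19 as the mean of its probe sets, and Slc38a4 -0.25 by the probe set brightest on the 4 arrays. The cause was not tested. With 2 arrays a group, small differences cannot be resolved.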

Other observations

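A few genes outside the lists answered within 1 h of 11 mM and kept that direction after 2 days; they were picked after their values were seen. Klf15, a transcription factor gene of fasting metabolism, had 211 and 170 at time 0, 76 and 75 at 1 h, and 40 and 37 at 4 h. In the 2-day culture it had 65 and 67 at 11 mM, against 290 and 298 at 3 mM. It fell by 1.17 at 1 h (adjusted p = 0.0191) and by 1.92 after 2 days (adjusted p = 2.53e-06). Mir22hg, the host transcript of a microRNA, went up, with 121 and 129, 333 and 269, and 748 and 665 over the time course, and 284 and 494 at 11 mM, against 86 and 86 at 3 mM, after 2 days. Its rise was 1.16 at 1 h, 2.35 at 4 h and 1.94 after 2 days, and 0.88 after 2 days in old islets.

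Other genes had opposite calls at 4 h and after 2 days. Dnajb1, a heat shock cochaperone gene, had 1050 and 1488 at time 0 and 2466 and 2397 at 4 h, and in the 2-day culture 701 and 650 at 11 mM, against 1198 and 1252 at 3 mM. It rose by 0.95 at 4 h (adjusted p = 0.00217) and fell by 0.84 after 2 days (adjusted p = 0.00238). Hspa4, a related chaperone gene, rose by 0.55 and fell by 0.62, and Nop56, of small nucleolar ribonucleoproteins, rose by 0.91 and fell by 0.53. Tmem215 went the other way, with a fall of 0.60 at 4 h and a rise of 1.92 after 2 days. All 4 of these genes changed in old islets after 2 days in the direction of young islets.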
